A study of Homo sapiens with 7 samples.

Results

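Long noncoding RNAs (lncRNAs) are transcripts that do not encode a protein, and this account covers the m6A peaks that fell in their genes in HEK-293T cells. Peaks were chosen when their centre lay in the hg38 span of a RefSeq gene of biotype lncRNA and in no protein-coding gene span. MALAT1, NEAT1, TUG1, JPX, GAS5 and genes whose symbol starts with SNHG were left out by name, which removed 77 peaks. This gave 2070 of the 59659 peaks in 4 lists. Of these, 1963 lay in exactly 1 lncRNA span, in 730 of the 18330 lncRNA genes of the table, and 107 lay in 2 spans.

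The series compared an antibody method and a chemical method for mapping N6-methyladenosine (m6A), a methyl mark on adenosine within RNA. HEK-293T is an established human embryonic kidney cell line, and no group carried a treatment of the living cells. MeRIP-seq pulled down RNA fragments with an antibody against m6A. For m6A-ORL, the fragments went through NO/O2, then TDO, then the probe BA, and were held on streptavidin beads until DTT released them. MeRIP replicates 1 and 2 and m6A-ORL replicate 2 are labelled polyA RNA, and m6A-ORL replicate 1 is labelled total RNA, while the common protocol in the labels has an oligo(dT) step. RNA type and replicate therefore cannot be told apart within m6A-ORL. The labels do not say whether the replicates were separate cultures, and the p-values reflect only how these libraries scattered, possibly for technical reasons. The labels list 7 samples, and the 3 inputs were not analysed here.

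The mark is written co-transcriptionally by the METTL3-METTL14 complex, mostly at adenosines in a short sequence context such as GGAC, and is read by YTH-domain proteins. It is best known from the last exons of mRNAs. Among lncRNAs the best known case is XIST, the RNA that coats and silences the inactive X chromosome and that carries m6A recognised by the nuclear reader YTHDC1. Many lncRNA genes are transcribed from the same promoter region as a protein-coding gene in the other direction (divergent, symbols ending in -DT) or overlap one on the other strand (antisense, symbols containing -AS).

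RefSeq start windows (250 bases before to 50 after the annotated start, GRCh38.p14) were examined for peaks on the strand of the gene. RefSeq gives several starts for some genes, and for each gene the window whose peaks came from the most lists, then covered the most bases, was kept. Windows of 67 lncRNA genes had at least 30 bases under such a peak, 58 in a MeRIP list, 14 in an m6A-ORL list and 5 by both methods. The 4 sequences printed here are those with a peak in both MeRIP lists and in an m6A-ORL list. They show the start regions that recurred most across lists, and the fifth window found by both methods, that of LOC730183, had a peak in MeRIP 1 and m6A-ORL 1. Each runs 5′ to 3′ along the gene's strand, and capitals mark the bases under the m6A-ORL peak.
XIST (chrX:73852665-73852964, minus strand): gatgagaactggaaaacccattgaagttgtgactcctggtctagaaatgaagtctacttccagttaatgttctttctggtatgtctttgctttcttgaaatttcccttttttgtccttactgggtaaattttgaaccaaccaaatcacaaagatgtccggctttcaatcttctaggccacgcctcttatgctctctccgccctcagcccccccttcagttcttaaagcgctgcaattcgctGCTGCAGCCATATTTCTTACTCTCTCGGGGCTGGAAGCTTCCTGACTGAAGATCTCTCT
NORAD (chr20:36050911-36051210, minus strand): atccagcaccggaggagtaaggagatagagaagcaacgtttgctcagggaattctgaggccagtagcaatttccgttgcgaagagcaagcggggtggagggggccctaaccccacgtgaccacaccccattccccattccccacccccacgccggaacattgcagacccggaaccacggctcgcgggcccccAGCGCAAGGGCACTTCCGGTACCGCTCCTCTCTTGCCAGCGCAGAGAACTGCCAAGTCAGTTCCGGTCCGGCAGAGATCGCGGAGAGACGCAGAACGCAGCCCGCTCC
ARRDC1-AS1 (chr9:137618480-137618779, minus strand): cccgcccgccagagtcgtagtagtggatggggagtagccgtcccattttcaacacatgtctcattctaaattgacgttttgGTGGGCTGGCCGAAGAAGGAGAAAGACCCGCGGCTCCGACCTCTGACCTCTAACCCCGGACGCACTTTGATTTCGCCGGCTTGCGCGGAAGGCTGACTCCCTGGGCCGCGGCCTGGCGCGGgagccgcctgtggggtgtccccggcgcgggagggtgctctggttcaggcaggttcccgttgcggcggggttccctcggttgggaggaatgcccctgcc
SLC25A5-AS1 (chrX:119468213-119468512, minus strand): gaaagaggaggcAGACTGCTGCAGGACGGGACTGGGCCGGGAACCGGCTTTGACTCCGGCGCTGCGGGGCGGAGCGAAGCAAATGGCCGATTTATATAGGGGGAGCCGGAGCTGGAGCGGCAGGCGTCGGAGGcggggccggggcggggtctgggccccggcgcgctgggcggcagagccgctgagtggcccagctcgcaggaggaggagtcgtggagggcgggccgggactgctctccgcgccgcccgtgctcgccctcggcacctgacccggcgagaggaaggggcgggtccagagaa
In XIST and NORAD the capitals cross the annotated start and run to the end of the window. In ARRDC1-AS1 and SLC25A5-AS1 they lie before the start of the window shown, which in both is an internal start, so the peaks still fall inside the gene span. In SLC25A5-AS1 the MeRIP peaks covered other bases of the window and did not reach the m6A-ORL peak. The m6A-ORL peak came from replicate 1 in XIST, NORAD and ARRDC1-AS1 and from replicate 2 in SLC25A5-AS1, an X-linked antisense neighbour of an adenine nucleotide carrier gene.

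Motif letters were counted in these windows on both strands separately, and the 3 motifs cannot occupy the same bases. GGACT was present on the gene's strand in 25.4% of the 67 windows with a peak and in 25.2% of all 34943 start windows of the table. GAACT was present in 22.4% against 20.8%, and AGACT in 19.4% against 21.0%. On the other strand the shares were 29.9% against 25.4%, 13.4% against 20.4% and 26.9% against 21.0% in the same order. The letters lay under a peak in 7 windows for GGACT, 5 for GAACT and 4 for AGACT. SLC25A5-AS1 held 2 GGACT and 1 AGACT under a peak of either method, and NORAD held 1 GAACT under its peak. The shares in windows with a peak thus lay close to those of all windows for the gene's strand. In the 12894 start windows of lncRNA genes alone, the shares on that strand were 24.3% for GGACT, 23.1% for GAACT and 23.5% for AGACT. Beside these, windows with a peak were lower for GAACT and AGACT and higher for GGACT.

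Both MeRIP lists gave lncRNA genes a larger share of their peaks than either m6A-ORL list. The share was 4.08% of 20760 peaks in MeRIP replicate 1 (848 peaks, exact Clopper-Pearson 95% interval 3.82 to 4.36%). It was 4.30% of 20216 in MeRIP replicate 2 (870 peaks, 4.03 to 4.59%). It was 2.59% of 11022 in m6A-ORL replicate 1 (286 peaks, 2.31 to 2.91%) and 0.862% of 7661 in m6A-ORL replicate 2 (66 peaks, 0.667 to 1.09%). The MeRIP lists lay close together and the m6A-ORL lists lay apart, with the total RNA list above the polyA list. Means were 4.19% ± 0.155 and 1.73% ± 1.23 (SD, n = 2 each), a difference of -2.47 percentage points (exact permutation p = 0.33, two-sided, which is as low as 4 lists can reach). Cut to the 7661 best-scored peaks of each list, the difference was -0.953 points. With peaks at a score of 1e-05 or below it was -1.59, and without m6A-ORL replicate 2 it was -1.60. Intervals cover counting error only, and read depth is unknown.

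**Figure D1:**
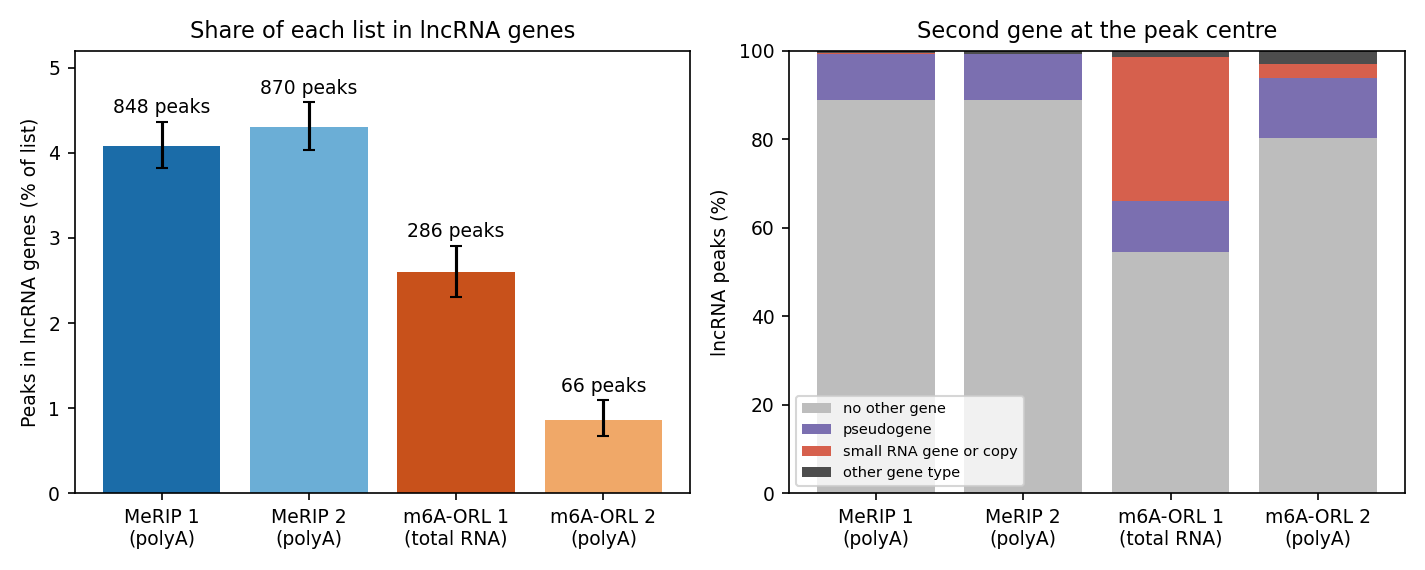
Left, peaks in lncRNA genes as a percent of each list (bars, with exact 95% binomial intervals and the number of peaks). Right, the share of these peaks by the type of any further gene whose span holds the peak centre. The MeRIP bars stand at 4.08 and 4.30%, above both m6A-ORL bars, and the small RNA segment is visible for m6A-ORL replicate 1, at 32.5%.

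Peaks in lncRNA genes were narrower than the remaining peaks of the same list in all 4 lists. Their median width was 181, 180.5, 121 and 96 nt in MeRIP 1 and 2 and m6A-ORL 1 and 2, against 211, 211, 146 and 149 nt for the rest. The mean of these differences was -34.6 ± 12.5 nt (SD, n = 4 lists, exact sign-flip permutation p = 0.125, the smallest that 4 lists allow). Between methods, the medians averaged 180.75 ± 0.354 nt for MeRIP and 108.5 ± 17.7 nt for m6A-ORL (SD, n = 2 each; difference -72.25 nt, exact permutation p = 0.33). The difference was -118.5 nt at a score of 1e-05 or below and -324.5 nt at equal list length.

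Peaks that cross a splice junction have 2 or more blocks in the deposited lists. They made up 14.7, 12.6, 12.9 and 12.1% of lncRNA peaks, against 16.9, 16.3, 9.88 and 27.8% of all peaks in the same lists. The lncRNA share was below the rest in 3 lists and above it in m6A-ORL replicate 1. The method means were 13.7% ± 1.48 and 12.5% ± 0.577 (SD, n = 2 each; difference -1.16 points, exact permutation p = 0.67). The sign turned, to 4.16 points, without peaks that have a further annotated gene at the centre and, to 2.19, without peaks at small RNA positions. Ranked by the authors' score within each list, with 0 the best percentile, the median lncRNA peak stood at 63.3, 64.9, 45.4 and 66.5, against 49.2 to 50 for the rest. The total RNA list was the only one in which the median lncRNA peak ranked ahead of the rest. In that list, the 93 lncRNA peaks at small RNA positions had a median percentile of 8.57. The 156 with no further gene at the centre stood at 68.3, behind the rest. The 33 at pseudogenes of other kinds stood at 58.0 and the remaining 4 at 1.30. Peaks with no further gene stood at 64.4, 65.2 and 66.1 in MeRIP 1, MeRIP 2 and m6A-ORL 2.

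The total RNA list differed from the other 3 in what else was annotated at the peak. A small RNA gene or a pseudogene copy of one held the centre of 93 of its 286 lncRNA peaks (32.5%, 27.1 to 38.3%). The count was 1, 1 and 2 in MeRIP 1, MeRIP 2 and m6A-ORL 2. By family, 22 of the 93 lay at 5S ribosomal RNA copies, 18 at 7SL RNA (the scaffold of the signal recognition particle) and 14 at U6 or U6atac. Another 10 lay at U1 and 7 at U2, the spliceosomal RNAs, 9 at 7SK, which holds the elongation factor P-TEFb inactive, 5 at snoRNAs or scaRNAs and 3 at vault RNAs. These 93 peaks were all of a single block, had a median width of 123 nt, ranked well by score (median percentile 8.57) and were overlapped by 0 MeRIP peaks and 1 peak of m6A-ORL 2.

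The lncRNA genes around them were long and the peaks had no preferred strand. They lay in 88 lncRNA spans with a median length of 35787.5 nt, and 33 of 63 with a known gene strand (52.4%) lay on the strand of the lncRNA. LINC02167 had 4 peaks in m6A-ORL 1 and 0 elsewhere, 3 of them at the 5S copies RNA5SP412, RNA5SP414 and RNA5SP421. LOC105378198 had 3, at the vault RNA genes VTRNA1-1, VTRNA1-2 and VTRNA1-3, with scores of 3.2e-28, 1.3e-97 and 4e-38. ZFAS1, a host gene of box C/D snoRNAs, had 3, all at SNORD12C or SNORD12. In LOC105378198 and ZFAS1 every listed peak was thus centred in a small RNA gene. In LOC124902297, the RNU6ATAC gene held 1 peak in each m6A-ORL list, with scores of 0 and 0.00065. Reads from 5S, 7SL or U6 RNA can align to more than 1 copy, and which copy they came from was not tested.

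Without the 93 peaks, 193 lncRNA peaks remained in m6A-ORL 1, or 1.75% of the list. In place of 82 of 286 (28.7%, 23.5 to 34.3%, background over all peaks of the list 54.7%), a MeRIP peak then overlapped 82 of 193 (42.5%). Pseudogenes of other kinds held the centre of 89, 89, 33 and 9 peaks in the order of the lists, and 753, 774, 156 and 53 peaks had no further gene at the centre.

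Lists of the same method shared lncRNA peaks to very different degrees. In MeRIP 1, 688 of 848 lncRNA peaks (81.1%, 78.3 to 83.7%) were overlapped on the same strand by at least 1 nt of a peak in MeRIP 2, against 83.6% of all its peaks. In MeRIP 2, 679 of 870 (78.0%, 75.1 to 80.8%) were overlapped by MeRIP 1, against 86.0% of all. In m6A-ORL 1, 16 of 286 (5.59%, 3.23 to 8.93%) were overlapped by m6A-ORL 2, against 13.8% of all. In m6A-ORL 2, 14 of 66 (21.2%, 12.1 to 33.0%) were overlapped by m6A-ORL 1, against 19.6% of all. The lncRNA share was thus near the background in MeRIP 1 and m6A-ORL 2 and below it in MeRIP 2 and m6A-ORL 1.

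Across methods, few MeRIP peaks in lncRNA genes had an m6A-ORL counterpart. An m6A-ORL peak of either list overlapped 95 of 848 in MeRIP 1 (11.2%, 9.16 to 13.5%, background 33.5%) and 89 of 870 in MeRIP 2 (10.2%, 8.30 to 12.4%, background 33.0%). In the other direction the m6A-ORL lists differed. A MeRIP peak of either list overlapped 36 of 66 in m6A-ORL 2 (54.5%, 41.8 to 66.9%, background 47.8%), and the share for m6A-ORL 1 was the 28.7% given above. The intervals of both MeRIP lists and of m6A-ORL 1 lay below the background, while that of m6A-ORL 2 held it. Pair by pair, m6A-ORL 1 overlapped 8.84% of MeRIP 1 and 8.28% of MeRIP 2 lncRNA peaks (background 25.3 and 25.0%), and m6A-ORL 2 overlapped 4.13 and 4.02% (background 14.8 and 14.5%). MeRIP 1 and 2 overlapped 26.9 and 25.9% of m6A-ORL 1 lncRNA peaks (background 52.9 and 50.9%) and 53.0 and 51.5% of those of m6A-ORL 2 (background 45.8 and 44.1%). The lncRNA share lay under the background in the 6 pairs that involve a MeRIP denominator or the total RNA list, and above it in the 2 pairs of m6A-ORL 2. Over the 4 lists the difference from the rest was -16.7 ± 15.8 points (SD, exact sign-flip permutation p = 0.25, lncRNA peaks lower in 3 of 4 lists). At equal list length, MeRIP peaks were overlapped by m6A-ORL in 13.5% as the mean of 4 pairs of lists, against 6.32% ± 2.60 (SD) over full lists. Without m6A-ORL replicate 1 that mean was 4.08%. The mean share of m6A-ORL peaks overlapped by MeRIP was 39.3% ± 15.0 over full lists and 25.4% at equal length. No background over all peaks is given at equal length, so those means describe lncRNA peaks only.

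**Figure D2:**
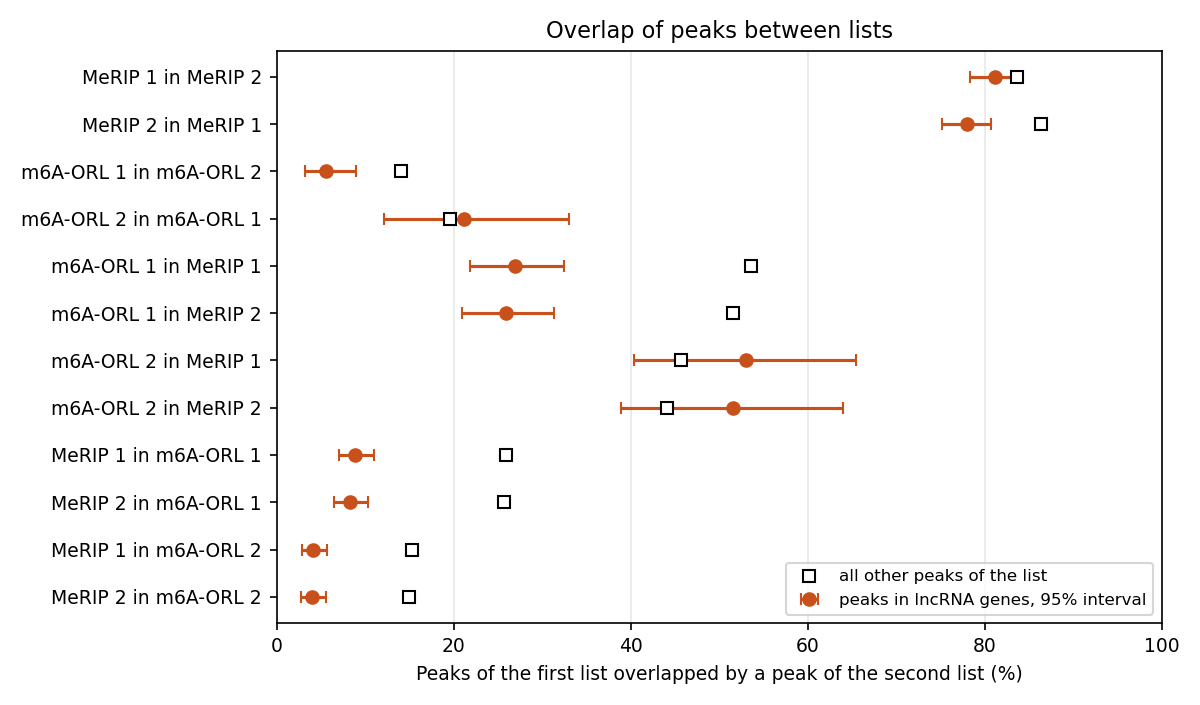
Percent of peaks of the first list overlapped on the same strand by a peak of the second list, for peaks in lncRNA genes (filled, with exact 95% intervals) and for all other peaks of that list (open squares). For m6A-ORL 1 in MeRIP 1 the lncRNA value is 26.9% and the other peaks stand at 53.6%, while for m6A-ORL 2 in MeRIP 1 they are 53.0 and 45.7%.

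At the level of genes, MeRIP alone accounted for the largest class. Lists held lncRNA peaks in 485, 493, 213 and 48 genes. Both MeRIP lists had a peak in 398 of the 730 lncRNA genes (54.5%), against 71.3% of the 9612 protein-coding genes with a peak. Both m6A-ORL lists had one in 16 (2.19%, protein-coding 23.6%), and all 4 lists in 13 (1.78%, protein-coding 19.4%). Both MeRIP lists and neither m6A-ORL list had peaks in 318 genes (43.6%, protein-coding 22.4%), with a median span of 7945.5 nt. The 139 genes with peaks in m6A-ORL 1 alone (of 730, protein-coding 936 of 9612 or 9.74%) had a median span of 36035 nt. Peaks in m6A-ORL 2 alone were found in 8 genes (1.10%, protein-coding 5.27%). At a score of 1e-05 or below, 249 genes had peaks in both MeRIP lists, 3 in both m6A-ORL lists and 2 in all 4. At equal list length 114 genes had peaks in both MeRIP lists and 8 in all 4. No protein-coding share is given at these settings, so these counts do not compare lncRNA with protein-coding genes.

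Most lncRNA genes had a single peak: 308 of 485, 313 of 493, 173 of 213 and 39 of 48. Genes with 3 or more numbered 80, 77, 13 and 2. XIST had the most, followed by LINC01000 (8, 8, 1 and 3), THAP7-AS1 (8, 9, 0 and 0), DGCR5 (7, 10, 0 and 0) and LINC00205 (4, 7, 2 and 1). These counts include places listed more than once. LINC01000, whose strand is not given, had peaks on both strands, and those on the minus strand were centred in the pseudogene CICP14. THAP7-AS1 also had peaks on both strands, many of them centred in the pseudogene TUBA3FP. In the 4 lists, 86, 82, 31 and 6 lncRNA peaks overlapped another peak of their own list on the same strand.

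**Figure D3:**
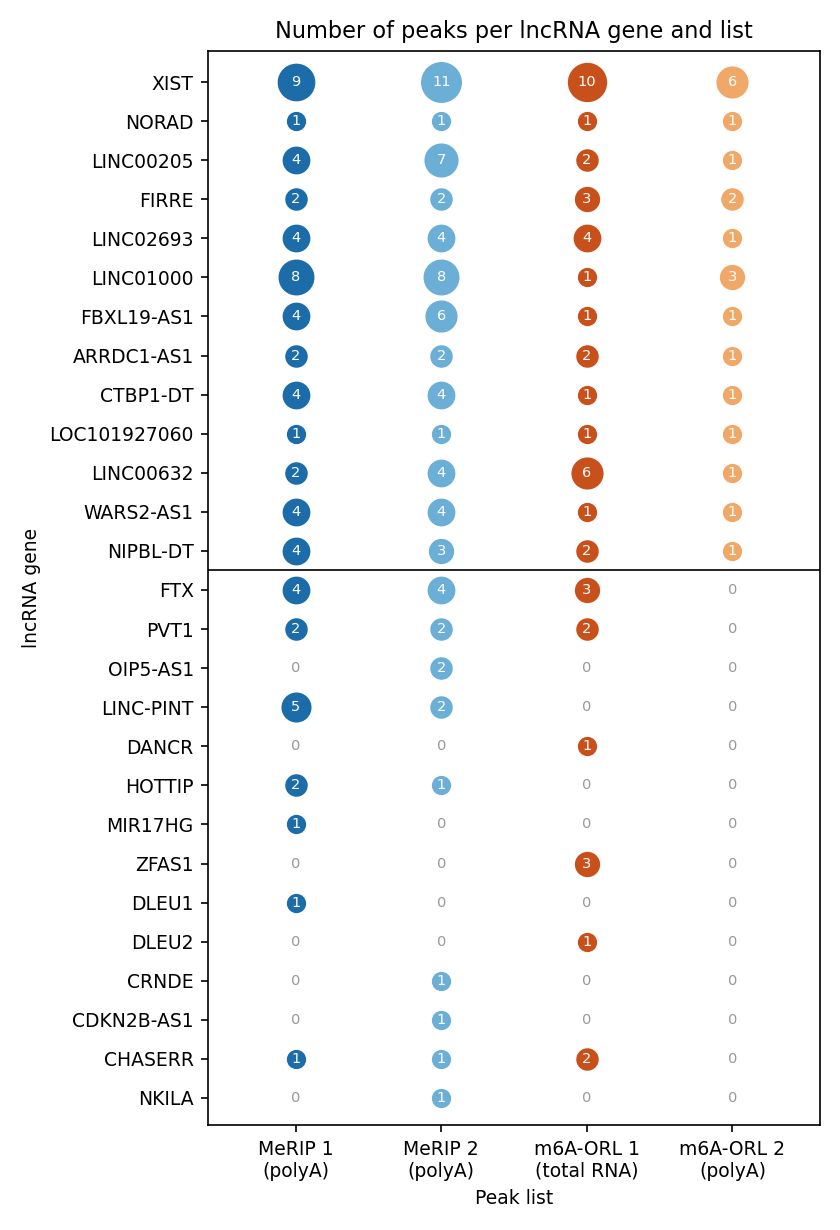
Number of peaks in each list (columns) for the 13 lncRNA genes with peaks in all 4 lists (above the line) and for the other well-studied lncRNA genes with a peak (below). Circles grow with the number printed in them, and XIST has the most in the polyA m6A-ORL list, with 6.

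XIST had 9, 11, 10 and 6 peaks in MeRIP 1 and 2 and m6A-ORL 1 and 2. On its own strand, minus on chromosome X, these were 6, 7, 7 and 5, and the others lay on the opposite strand. A cluster near the 5′ end was present by both methods. In MeRIP 1 its peaks were centred 66, 710.5, 1624.5 and 2104 nt from the RefSeq start, and in m6A-ORL 1 at 111, 695.5, 1849 and 2898 nt. In m6A-ORL 2 they lay at 1220, 1639 and 2853 nt. The first kilobases of XIST contain its A-repeat, the element required for silencing.

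Other XIST peaks lay far from the start. A distal region centred 25801 nt from the start in both MeRIP lists was listed at 25861 nt in m6A-ORL 1 and 25891 nt in m6A-ORL 2, so all 4 lists held it. A region near the 3′ end, centred at 31885 nt in both MeRIP lists, was at 31840 nt in m6A-ORL 1 and had no peak in m6A-ORL 2. The place at chrX:73849756-73849906 was in both m6A-ORL lists and neither MeRIP list, with scores of 1.1e-05 and 2.5e-11. Peaks at 10705.5 nt (m6A-ORL 1) and 6569.5 nt (m6A-ORL 2) stood alone. All 20 MeRIP peaks in XIST were overlapped by an m6A-ORL peak, and 11 of the 16 m6A-ORL peaks by a MeRIP peak.

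The XIST region also showed peaks listed on both strands at 1 place. Of the 36 peaks, 20 had a partner in the same list on the opposite strand that overlapped by at least 50% of the shorter peak. In m6A-ORL 1 the pair at the distal region both had a score of 1e-210, and the pair near the 3′ end 7.9e-89 and 6.3e-89. The plus-strand partners at these 2 places carried an Ensembl ID that lay in the span of TSIX, the antisense gene of XIST. The pair near the 5′ end was unequal in score, at 5e-11 on the plus strand against 1e-121 in MeRIP 1 and 1e-12 against 1e-143 in MeRIP 2, and lay outside TSIX. Which strand the RNA came from was not tested, and the use of strand in peak calling is not stated in the labels or headers.

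**Figure D4:**
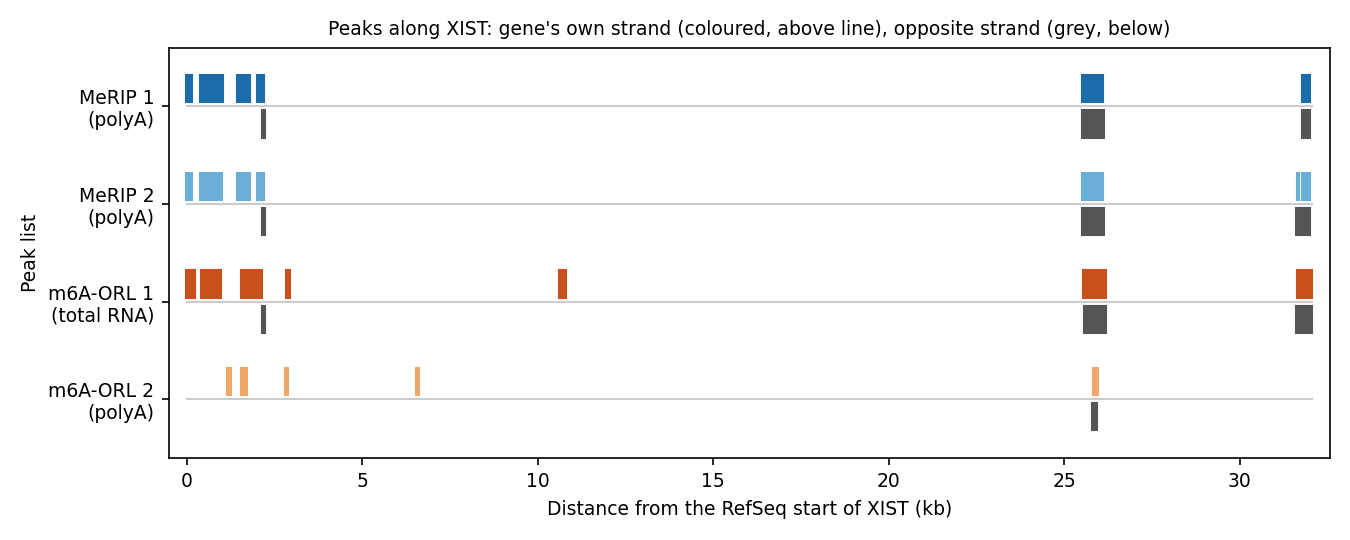
Peaks along XIST by list, as distance from its RefSeq start in kb, with peaks on the gene's own strand above each line and those on the opposite strand below. The cluster within 3 kb of the start and the region near 25.8 kb recur by both methods, and the opposite-strand peaks lie mostly under own-strand peaks.

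Over all lncRNA genes, such mirrored peaks numbered 125, 117, 29 and 13. These were 14.7, 13.4, 10.1 and 19.7% of lncRNA peaks, against 10.1, 10.1, 7.01 and 6.60% of all peaks of each list. The share was higher than in the rest in 4 of 4 lists (mean difference 6.18 ± 4.74 points, SD, exact sign-flip permutation p = 0.125). In genes of known strand, 88.2, 88.2, 69.7 and 83.3% of lncRNA peaks lay on the gene's own strand. For peaks in protein-coding genes these shares were 94.0, 94.1, 93.8 and 96.8%. Some peaks on the opposite strand overlapped the start window of a protein-coding gene on the strand of the peak. These were 21 of 80, 20 of 81, 8 of 63 and 2 of 9. Of the own-strand peaks, 2 of 597, 3 of 607, 1 of 145 and 1 of 45 did so. The Ensembl ID given by the authors also named a peak in a protein-coding span for 211, 214, 42 and 18 lncRNA peaks.

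NORAD, an abundant cytoplasmic RNA that binds Pumilio proteins and is needed for chromosome stability, had 1 peak in each list. Both MeRIP peaks covered 1224 nt at chr20:36049795-36051018, with scores of 1e-200 and 1e-235. The m6A-ORL peaks were narrower and lay inside them, 389 nt wide in replicate 1 (score 1e-14) and 448 nt in replicate 2 (score 1.5e-07). All were centred within the first 553.5 nt of the gene, at 553.5, 553.5, 136 and 404.5 nt. NORAD and XIST were the best ranked of the genes found in all 4 lists.

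FIRRE, an X-linked nuclear RNA involved in nuclear organisation, had 2, 2, 3 and 2 peaks. They lay in a single stretch of the gene, under 2 Ensembl IDs, and 8 of the 9 were centred in the span of the pseudogene MCRIP2P1. The 5 m6A-ORL peaks were all overlapped by MeRIP. LINC00205 had 4, 7, 2 and 1 peaks, including a 3-block MeRIP peak of 2040 nt in both lists, and its 3 m6A-ORL peaks were all overlapped by MeRIP. LINC02693 had 4, 4, 4 and 1, with 4 of 5 m6A-ORL peaks overlapped, and LINC01000 had all 4 of its m6A-ORL peaks overlapped.

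The antisense and divergent genes found in all 4 lists had peaks on their own strand. ARRDC1-AS1 had 2, 2, 2 and 1 peaks, and CTBP1-DT had 4, 4, 1 and 1, the m6A-ORL peaks being 150 and 90 nt wide within a MeRIP peak of 420 nt. FBXL19-AS1 had 4, 6, 1 and 1, at different places in the m6A-ORL lists, centred 1017 nt from the start in replicate 1 and 3486 nt in replicate 2. LOC101927060 had 1 in each list. The remaining genes, WARS2-AS1 (4, 4, 1 and 1), NIPBL-DT (4, 3, 2 and 1) and the X-linked LINC00632 (2, 4, 6 and 1), fell outside the naming rule and are named because they complete the 13. In ARRDC1-AS1, FIRRE, LINC00205, WARS2-AS1, NIPBL-DT and LINC00632, as in FBXL19-AS1, no m6A-ORL 1 peak overlapped an m6A-ORL 2 peak. Over the 13 genes, 43 of 56 m6A-ORL peaks (76.8%) were overlapped by MeRIP and 59 of 106 MeRIP peaks by m6A-ORL. The genes were picked for having peaks by both methods, which favours overlap, so these counts are no independent measure of agreement. Over all peaks of each list, the other method overlapped 33.5 and 33.0% in MeRIP 1 and 2. It overlapped 54.7 and 47.8% in m6A-ORL 1 and 2. Every peak of CTBP1-DT, FBXL19-AS1, LOC101927060 and WARS2-AS1 carried an Ensembl ID that also named peaks in protein-coding spans. LINC00632 had the lowest share among the 13, with 1 of 7 m6A-ORL peaks overlapped.

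Several genes found in both MeRIP lists alone were led by a peak under an Ensembl ID that also named peaks in protein-coding spans. GHRLOS, antisense to the ghrelin gene, had 2 and 3 peaks, led by a 2-block peak of 418 nt with a score of 0 in both lists and under such an ID. LOC105376289 (1 and 1), CIRBP-AS1 (1 and 1) and DICER1-AS1 (1 and 2) were also led by 2-block peaks under such an ID. In CIRBP-AS1 and LOC105376289 an m6A-ORL 1 peak overlapped the MeRIP peak although its own centre lay outside the chosen set. LINC00938 had a single-block peak of 690 nt in both lists, with scores of 4e-90 and 3.2e-84 and no m6A-ORL overlap. RNF217-AS1 and KDM4A-AS1 had 1 and 1, each of 2 blocks and mirrored, and LINC01297-DUXAP10-NBEAP6 had 2 and 3 at the pseudogene DUXAP10.

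Both m6A-ORL lists but no MeRIP list had peaks in 3 genes. In LOC124902297 the peak was the RNU6ATAC peak described above, and in LINC02613 it lay at the pseudogene RPLP0P6. RASAL2-AS1 was the only one of the 3 with no further gene at its peak. Its peaks lay at chr1:178093686-178093895, 210 nt wide with a score of 1e-14 in replicate 1, and 180 nt wide with a score of 3.2e-07 in replicate 2. They were centred 202.5 and 187.5 nt from the RefSeq start, on the strand of the gene.

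Genes listed in m6A-ORL 2 alone had at most 2 peaks. LOC105378179 had 2, of which 1 was centred in RN7SL2. The ends of the other, a peak of 2 blocks, enclosed that place on the same strand. LINC00987 had 2 that mirrored each other at the pseudogenes A2MP1 and PTMAP4. GPR176-DT had 3 peaks in m6A-ORL 1 alone, all mirrored.

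Of 40 lncRNA genes listed by hand as well studied, 37 had biotype lncRNA in the table and 17 had a chosen peak. A MeRIP list held 14 of the 17, m6A-ORL 1 held 9 and m6A-ORL 2 held 3, which were XIST, NORAD and FIRRE. FTX, an X-inactivation centre gene that promotes XIST expression, had 4, 4, 3 and 0 peaks, 6 of which were mirrored, and 1 of its m6A-ORL peaks lay at RN7SL648P. CHASERR, which restrains its neighbour CHD2, had 1, 1, 2 and 0. Its MeRIP peaks were 240 nt wide and centred 15096.5 nt from the start, and an m6A-ORL 1 peak at 15141.5 nt overlapped them. The other CHASERR peak of that list lay 32 nt from the start.

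PVT1, the neighbour of MYC, had 2, 2, 2 and 0, and neither of its m6A-ORL peaks was overlapped by MeRIP. Of these, 1 was centred in the U1 variant gene RNVU1-32 (score 3.2e-25), and the other, of 2 blocks, began beside it (score 2e-25). LINC-PINT, a p53-induced RNA, had 5, 2, 0 and 0, and HOTTIP, at the end of the HOXA cluster, had 2, 1, 0 and 0. The LINC-PINT peaks of MeRIP 1 all lay within chr7:131108029-131108359, under 2 Ensembl IDs, at score percentiles of 88.8 to 97.2. Those of MeRIP 2 stood at 68.9 and 71.1. The HOTTIP peaks stood at 85.1 and 99.4 in MeRIP 1 and 92.0 in MeRIP 2. Peaks of OIP5-AS1 (0, 2, 0 and 0), MIR17HG (1, 0, 0 and 0), DLEU1 (1, 0, 0 and 0), CRNDE, CDKN2B-AS1 and NKILA (each 0, 1, 0 and 0) appeared in 1 MeRIP list. DLEU2 and DANCR had 1 peak each in m6A-ORL 1 alone, both on the strand opposite to the gene. Many of these peaks ranked low in their list. The best percentile was 92.0 in OIP5-AS1, 96.4 in MIR17HG, 99.9 in DLEU1, 84.8 in DLEU2 and 90.1 in DANCR. It was 64.7 in CRNDE, 53.7 in CDKN2B-AS1 and 76.8 in NKILA. A gene absent from a list had no chosen peak there that was centred in its span alone. A listed peak centred elsewhere can still reach such a gene, as in CIRBP-AS1 and LOC105376289. At unknown depth, absence also does not separate lack of the mark from lack of reads.

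By naming class, antisense genes held 31.4, 30.6, 21.2 and 29.0% of the peaks that lay in exactly 1 lncRNA span. The classes differ in size, with 2047 antisense, 592 divergent and 12412 LOC genes among the 18330 lncRNA genes. Divergent genes held 17.9 and 17.6% in the MeRIP lists and 7.91 and 6.45% in the m6A-ORL lists, where they numbered 22 and 4 peaks. Genes with no approved symbol (LOC) held 18.3, 18.5, 36.3 and 17.7%. The LOC peaks of m6A-ORL 1, among them many of those at small RNA positions, were on the gene's own strand in 47.6% of cases. They were overlapped by MeRIP in 9.90%. In the same list 40.7% of antisense and 45.5% of divergent peaks were overlapped by MeRIP.

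Peaks in lncRNA genes lay on chromosome X in 4.13, 4.60, 9.44 and 16.7% of cases, against 2.40, 2.38, 3.44 and 3.42% of the rest (higher in 4 of 4 lists, exact sign-flip permutation p = 0.125). Without XIST the shares were 3.10, 3.38, 6.16 and 8.33%, the last from 5 of 60 peaks (2.76 to 18.4%).

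Along the genomic span of the lncRNA genes, the 5′ end held more peaks than any other stretch of equal length in all 4 lists. The 5′ 10% of each span held 20.0, 19.2, 19.4 and 24.2% of peaks, and the last 10% held 16.5, 16.5, 14.7 and 9.68%. In protein-coding genes the last 10% held 36.1, 35.8, 33.2 and 27.6% and the first 10% held 14.1, 14.6, 17.0 and 18.0%. The last 10% thus held a smaller share in lncRNA genes than in protein-coding genes in 4 of 4 lists. Between methods, the last 10% averaged 16.5% ± 0.0176 in MeRIP and 12.2% ± 3.59 in m6A-ORL (SD, n = 2 each; difference -4.30 points, exact permutation p = 0.33). The first 10% averaged 19.6% ± 0.567 and 21.8% ± 3.37 (difference 2.21 points, exact permutation p = 0.67), and its difference was -0.175 without m6A-ORL replicate 2 and 0.637 without XIST. Exons were not available here, so position cannot be told apart from where exons lie in the span. The rule also left out peaks centred in a protein-coding span. Stretches of an lncRNA span that overlap a coding gene could therefore hold no chosen peak. No such stretch was barred in protein-coding genes, so the shares of lncRNA and protein-coding genes are not strictly comparable.

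**Figure D5:**
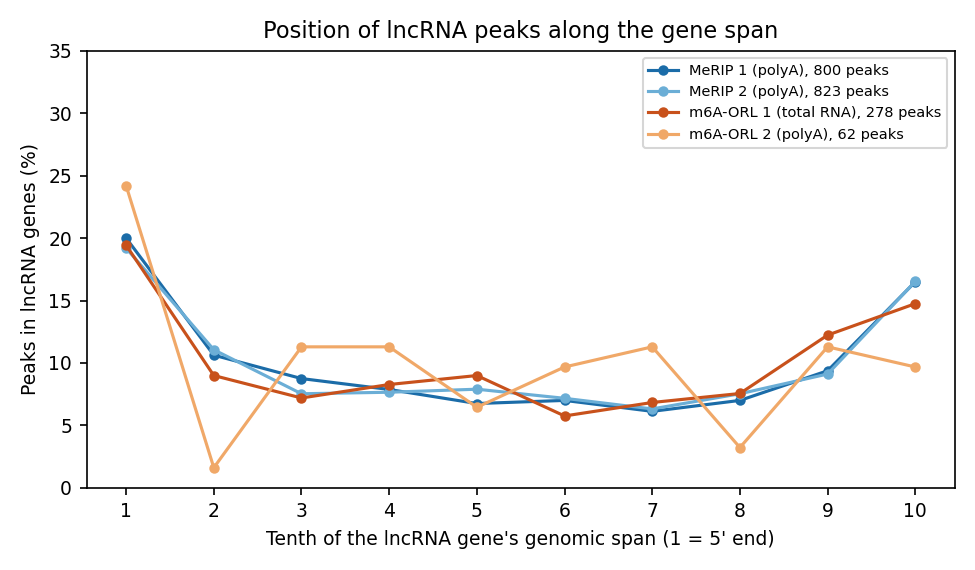
Percent of the peaks in exactly 1 lncRNA span that were centred in each 10% of that span, from the 5′ end, by list. All lists are highest in the first 10%, between 19.2 and 24.2%, and the MeRIP lists reach 16.5% in the last.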

How the data were processed

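Each deposited list has 12 BED columns, per the file headers and values: position, strand, blocks, an Ensembl gene ID and a score. The deposited score served for ranks and filters inside each list, lower values first. Its meaning, the peak caller, the input and the cut-off were not given in the sources used here. Per the submitters' processing notes, the tools included Trim Galore, STAR and HOMER and the build was hg38, with no versions. Exact duplicate lines were removed (4, 3, 2 and 1 in MeRIP 1, MeRIP 2, m6A-ORL 1 and m6A-ORL 2).

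Peaks were placed by their genomic centre on RefSeq gene spans (GRCh38.p14, the same build), since 0 Ensembl IDs could be matched in that table. A junction-crossing peak can have its centre in an intron, and 3, 3, 3 and 1 chosen peaks had no block in the lncRNA span. Gene strand was known for 11462 of the 18330 lncRNA genes, from the start-window table. Position used the strand of the gene or, where it was not given, that of the peak. Overlap means blocks sharing at least 1 nt on the same strand. Genes were counted from peaks in exactly 1 lncRNA span.

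Method means over 2 lists were compared by exact two-sided permutation of the method label over 4 lists (smallest p 0.33), and lncRNA peaks with the rest by exact sign flips over lists (smallest p 0.125). Other values are descriptions with exact (Clopper-Pearson) 95% intervals. The overlap and permutation code was tested on simulated data. Python 3.11.15, numpy 2.4.6, pandas 2.3.3, scipy 1.17.1 and matplotlib 3.10.9 were used.

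Members and lists were chosen with earlier results of these data known. Named genes were the best ranked by score with peaks in all 4 lists (up to 10), in both MeRIP lists alone, in both m6A-ORL lists alone (up to 8 each), those with the most peaks, up to 5 in a single m6A-ORL list, and the well-studied genes with a peak. Start windows, mirrored peaks and motifs were added after the lists had been seen. Alternatives covered the score limit, list length, membership, strand, overlap and leaving out each list.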

Additional observations from a re-analysis of the deposited data

How the results depend on the processing

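With 2 lists per method, p could not fall below 0.33, or 0.5 with the replicate number as a block, so p-values say nothing about stability. The replicate block left the differences as they were, at -2.47 points for the lncRNA share, -72.25 nt for width, -1.16 points for junction-crossing peaks, 2.21 for the first 10% of the span and -4.30 for the last 10%, with p of 0.5 for share, width and last 10% by exact permutation within the 2 pairs. The numbers are shared only in the labels, and nothing says that they pair the libraries. Leaving out each list in turn gave -3.33 to -1.60 points for the share, -84.75 to -59.75 nt for width, -2.21 to -0.115 points for junctions, -0.175 to 4.59 for the first 10% of the span and -6.84 to -1.76 for the last 10%. For overlap it gave 26.4 to 52.3% of m6A-ORL peaks and 4.08 to 8.56% of MeRIP peaks. The junction difference turned to 4.16 without further genes at the centre and to 2.19 without small RNA positions, and the first 10% of the span turned to -0.175 without m6A-ORL replicate 2. At a score of 1e-05 or below, overlap within MeRIP (79.6% over both directions) was 85.1%, and 249 genes had peaks in both MeRIP lists, 3 in both m6A-ORL lists and 2 in all 4. At equal list length the overlap was 87.9%, 114 genes had peaks in both MeRIP lists, 8 in all 4, and 13.5% of MeRIP peaks were overlapped by m6A-ORL. Both settings test fewer peaks, and no protein-coding or all-peak share is given beside them. The share, width and last-10% differences kept their sign under every alternative run. For the 49 named genes, the peak count stayed within 1.5 times in 427 of 539 pairs of gene and alternative, and 25 and 24 of the 112 that moved came from those score and length settings. The own-strand, mirrored-peak, XIST, small RNA and shared-ID alternatives were chosen after seeing the data. Read depth is unknown, and the 66 lncRNA peaks of m6A-ORL 2 limit every share of that list.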

Other observations

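MicroRNA host genes, 87 of the 18330 lncRNA genes, held 17 of 800, 12 of 823, 3 of 278 and 0 of 62 peaks. These are the peaks in exactly 1 lncRNA span in MeRIP 1 and 2 and m6A-ORL 1 and 2. Of the 87 genes, 10, 7, 3 and 0 had such a peak, beside 485, 493, 213 and 48 of all 18330. MIR1915HG had 4, 4, 1 and 0 peaks, on its own strand. In MIR4453HG, the host of MIR4453, the peak of MeRIP 1 covered 43 of the 89 bases of the hairpin and that of MeRIP 2 covered all 89. Their scores were 0.00083 and 0.00068, and the MeRIP 2 peak stood at percentile 88.9 of its list, among the weaker peaks. The gene names here were chosen after their values were seen.

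The peaks with no further gene at the centre were overlapped by the other method in 11.2, 9.95, 45.5 and 58.5% of cases in the same order of lists. Merged over lists on each strand, the peaks formed 1205 regions, of which 544 were in both MeRIP lists alone, 197 in m6A-ORL 1 alone, 25 in m6A-ORL 2 alone and 12 in all 4 lists. One of the 12 lay where HCG11 and LOC107986583 overlap, a place that the counts of genes leave out. Merging joins peaks through any list, so the m6A-ORL peaks of a region need not overlap, as in ARRDC1-AS1, FIRRE and LINC00205. XIST held several of the 12, among them both strands of a mirrored place. No matching share over all peaks of the series is given here.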
